A study of Mus musculus with 9 samples.

Results

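The cytosolic ribosomal protein genes, which encode the protein parts of the ribosomes that translate nuclear mRNAs, were followed through obstruction of the left ureter and its release in the mouse kidney. Members were the genes named Rpl or Rps with a number, together with Rplp0, Rplp1, Rplp2 and Rpsa. Kinases of the Rps6k family, Rps19bp1 and the mitochondrial ribosomal proteins were left out. The rule found 83 genes with 119 of the 41174 probes on the array. Of these genes 82 passed the filter on dim probes and were tested among 17745 genes, and each was well above background on all 9 arrays. They comprise 46 genes of the large (60S) subunit, 30 of the small (40S) subunit and 6 paralogs named after another member. Rpl39l, a paralog of Rpl39, has 2 probes, and neither was well above background on an array, which leaves it without a change.

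Whole left kidneys of male ISAM mice aged 10 weeks were profiled on single-colour arrays. Clip kidneys (n = 3) had the left ureter closed with a vascular clip for 2 days. ClipR-14 kidneys (n = 3) had the clip taken off and were collected 12 days afterwards. The control arm (n = 3) joined 2 sham-treated kidneys (Sham) and 1 untreated kidney. Every mouse, controls included, had the genotype Epo–/–::3.3K-Epo3'-Tg458 on a mixed strain background. These mice lack their own erythropoietin gene and carry a transgene that supplies the hormone mainly from the liver in early life, so adults are anaemic in all arms. The day on which controls were collected is not in the labels. The labels also do not state that each array is a separate animal, and p-values then measure the spread between these samples.

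A ribosome joins a 40S subunit, which reads the mRNA, to a 60S subunit, which forms the peptide bonds. Each subunit takes up most of its proteins in the nucleolus, along with ribosomal RNA made by RNA polymerases I and III, while some join later. Most ribosomal protein mRNAs begin with a C followed by a run of pyrimidines (a terminal oligopyrimidine, or TOP, tract), through which mTOR signalling controls their translation. In the kidney, tubule cells that grow or divide after injury draw on this machinery.

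The arrays read kidney tissue. Umod of the thick limb, Slc34a1 of the proximal tubule, Aqp2 of the collecting duct and Nphs1 of the podocyte were all kept and tested. The array's 75th percentile signal was 320 to 439 intensity units, 52.1% to 57.5% of probes were well above background, and 0 spots were saturated. Levels below are log2 values with 0 at the 75th percentile of the array. Every arm had 1 array on each of the 3 slides, and the untreated control was on slide 3. The number of arrays limits the precision, and errors of changes are standard errors of the fit with n = 3 per arm.

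Obstruction for 2 days came with a small shift of the family upwards. In Clip kidneys 32 of 82 ribosomal protein genes rose and 2 fell against control, while 48 did not pass the threshold (limma, BH-adjusted over 17745 genes, threshold 0.05). Thus 39.0% of the members were higher and 2.44% lower, whereas of all genes tested 48.9% passed, 21.4% higher and 27.5% lower. The members' median log2 change was 0.26 (range -2.26 to 0.83), beside -0.09 for all genes. Fitted changes were above 0 in 72 of the 82 members. The rises were modest, between 1.18-fold and 1.78-fold, and none reached a doubling.

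Both subunits moved. Of the large-subunit genes 17 of 46 rose and 1 fell, with a median of 0.27. Of the small-subunit genes 15 of 30 rose and 0 fell (19 in either direction had an unadjusted limma p under 0.05, which 55.4% of all genes had), also with a median of 0.27. All Clip arrays lay above all control arrays in 48 members and below them in 4, where 25.4% and 33.2% of all genes were apart in these directions. All 32 rises and both falls had their sign on each of the 3 slides. Over all genes 3781 of 3790 rises and 4875 of 4887 falls had too, so this does not set the members apart. The members' median change within slides 1, 2 and 3 was 0.29, 0.17 and 0.31, beside -0.07, -0.11 and -0.08 for all genes. With slide as a block, 46 members were higher and 2 lower, but the share of all genes past the threshold in that fit is not given. Calls were also gained outside the family in that fit, as mitochondrial ribosomal proteins went from 54 to 59 lower.

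The counts differed between settings, and the share of all genes past the threshold in each other setting is not given here or below. With normexp, which also took another signal column and an offset of 50, 3 members were higher and 2 lower, and the members' median was 0.07 beside 0.10 for all genes, so the family no longer lay above the other genes. With quantile normalization 70 were higher and 1 lower (median 0.66). With no filter on dim probes 20 of 83 members were higher and 1 lower, and without Clip 1 19 were higher and 1 lower. The calls of Rpl12, Rpl31, Rpsa and Rpl3l held in all 19 alternatives run. Among these, the sham arrays alone as control and the fit without the untreated array are the same fit.

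**Figure D1:**
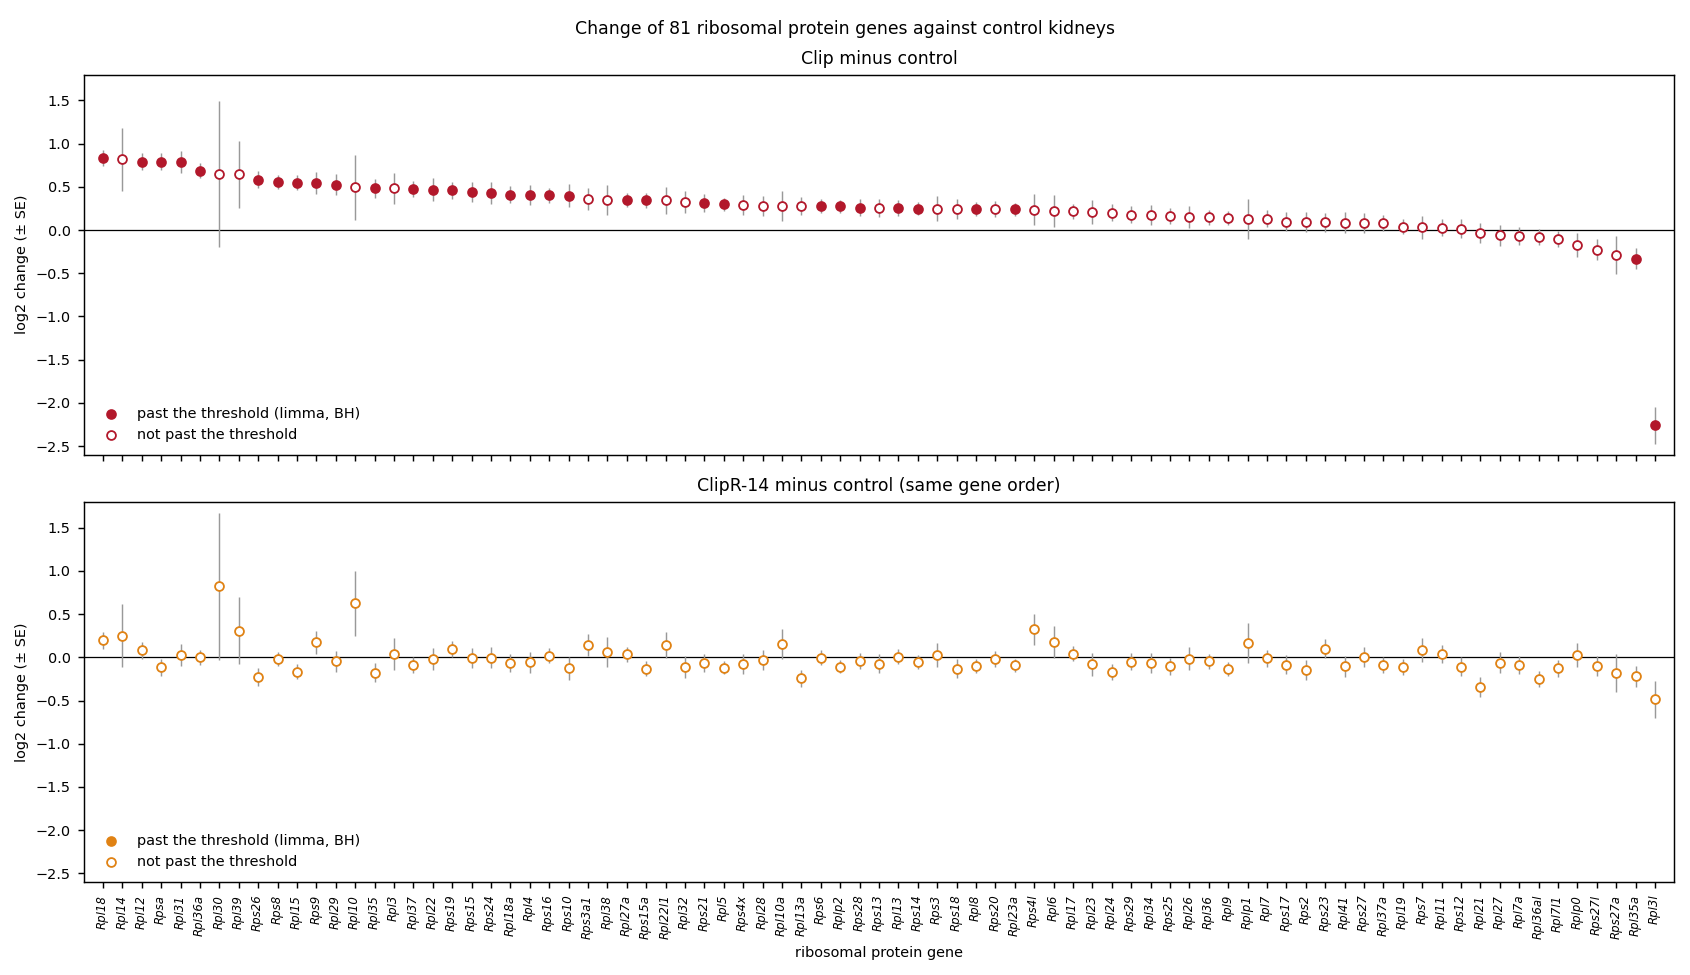
Fitted log2 change (vertical axis, ± SE) of 81 of the 82 ribosomal protein genes (horizontal axis, sorted by the Clip change), for Clip minus control above and ClipR-14 minus control below, with filled points past the threshold. Of the 32 rising members 1 is not drawn. In Clip 31 filled points lie above 0 and 2 below it, with Rpl3l at -2.26 far under the others, and in ClipR-14 no point is filled.

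Promoters of the 4 largest rises and of both falls are shown because these genes carry the extremes of the Clip comparison. They are RefSeq sequences of build GRCm38.p6, from 120 bases before to 20 bases after the annotated start, read 5′ to 3′ on the + strand. Capitals mark CCGGAA or its reverse complement TTCCGG, the core letters that ETS-family factors are known to bind. The windows are chr7:45717951-45718090 for Rpl18, chr2:32961592-32961731 for Rpl12, chr9:120127646-120127785 for Rpsa, chr1:39367731-39367870 for Rpl31, chr17:24727706-24727845 for Rpl3l, chr16:33056333-33056472 for Rpl35a.
Rpl18: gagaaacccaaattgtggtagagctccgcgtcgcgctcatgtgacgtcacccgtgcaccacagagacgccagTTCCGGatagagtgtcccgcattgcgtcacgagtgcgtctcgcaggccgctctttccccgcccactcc
Rpl12: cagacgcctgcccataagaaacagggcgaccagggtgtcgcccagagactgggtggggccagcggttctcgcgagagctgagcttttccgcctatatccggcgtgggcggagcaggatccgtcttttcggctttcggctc
Rpsa: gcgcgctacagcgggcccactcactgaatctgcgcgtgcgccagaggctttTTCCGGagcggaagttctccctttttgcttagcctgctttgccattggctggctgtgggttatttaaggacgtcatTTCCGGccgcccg
Rpl31: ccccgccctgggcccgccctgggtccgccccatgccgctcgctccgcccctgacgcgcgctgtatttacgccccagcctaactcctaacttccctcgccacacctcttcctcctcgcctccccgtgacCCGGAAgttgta
Rpl3l: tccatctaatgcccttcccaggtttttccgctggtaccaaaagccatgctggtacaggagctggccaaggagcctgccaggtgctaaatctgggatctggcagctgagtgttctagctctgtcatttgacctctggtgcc
Rpl35a: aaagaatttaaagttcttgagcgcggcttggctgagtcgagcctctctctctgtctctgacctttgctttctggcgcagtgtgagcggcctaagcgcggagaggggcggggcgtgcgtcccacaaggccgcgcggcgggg

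The letters CCGGAA on either strand were common in this family whether or not the gene rose. A promoter of 250 bases before to 50 after the start was listed for 63 of the 83 members, and 32 of them held CCGGAA (50.8%), against 15.2% of all 27025 promoters. Of the 25 rising members with a promoter 12 held it, and of the 37 other tested members 19 did. The windows shown hold 2 matches in Rpsa, 1 each in Rpl18 and Rpl31, and 0 in Rpl12, Rpl3l and Rpl35a. A C followed by 4 or more pyrimidines exactly at the annotated start, the letters of a TOP tract, was found in 12 of the 63 promoters (19.0%, against 2.49% of all). It was found in 7 of the 25 rising members and in 5 of the 37 others. The letters GGGCGG on either strand, a box bound by Sp1-like factors, were in 38 members (60.3%, against 35.9% of all), TATAAA in 6 (9.52%, against 14.2%) and CACGTG, an E-box that Myc can bind, in 5 (7.94%, against 7.24%), in 0 of the rising members. Matches of different motifs may overlap. They describe the letters alone.

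Rpl18, a protein of the 60S subunit, showed the largest rise. Its levels were 5.77, 5.65 and 5.64 on the Clip arrays, 4.93, 5.09 and 5.13 on the ClipR-14 arrays, and 4.93, 4.89 and 4.75 on the control arrays (Sham 1, Sham 2 and untreated, the order kept for control arrays from here on). The 3 Clip arrays stood above the other 6, and the change against control was 0.83 ± 0.10 (1.78-fold, limma, BH-adjusted p = 0.000173). Under normexp it fell short of the threshold at 0.45 (adjusted p = 0.0592).

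Rpl12, which sits at the base of the 60S stalk where elongation factors land, behaved alike. It had levels of 6.95, 6.83 and 6.78 in Clip, 6.21, 6.19 and 6.03 in ClipR-14, and 6.12, 6.10 and 5.97 in control. Every Clip array exceeded the other 6, with a change of 0.79 ± 0.10 (limma, BH-adjusted p = 0.000219).

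Rpsa, a 40S protein also known as the precursor of the laminin receptor, rose by a like amount. Its levels were 5.32, 5.10 and 5.27 in Clip, 4.38, 4.19 and 4.41 in ClipR-14, and 4.42, 4.49 and 4.42 in control. Clip arrays did not overlap with the others, and the change was 0.79 ± 0.10 (limma, BH-adjusted p = 0.000287). Its second, dim probe changed by 0.89 ± 0.37 (adjusted p = 0.0773 in a fit of every probe).

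Rpl31, a 60S protein near the exit of the peptide tunnel, had levels of 0.54, 0.63 and 0.93 in Clip, -0.10, -0.13 and 0.04 in ClipR-14, and -0.19, -0.14 and 0.06 in control. Again the Clip arrays stood apart, with slide 3 the highest of each arm, and the change was 0.79 ± 0.13 (limma, BH-adjusted p = 0.00108). Its second probe changed by 0.63 ± 0.20 (adjusted p = 0.0284 in the fit of every probe).

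Rpl36a, a 60S protein, had 6.32, 6.33 and 6.25 in Clip, 5.57, 5.67 and 5.61 in ClipR-14, and 5.64, 5.69 and 5.51 in control. The Clip arrays were again the highest, with a change of 0.69 ± 0.09 (limma, BH-adjusted p = 0.000256; 0.36 with normexp, adjusted p = 0.0855). Its 3 probes disagreed: the second gave 0.64 ± 0.10 and the dimmest -0.03 ± 0.13 (adjusted p = 0.886 in the fit of every probe).

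**Figure D2:**
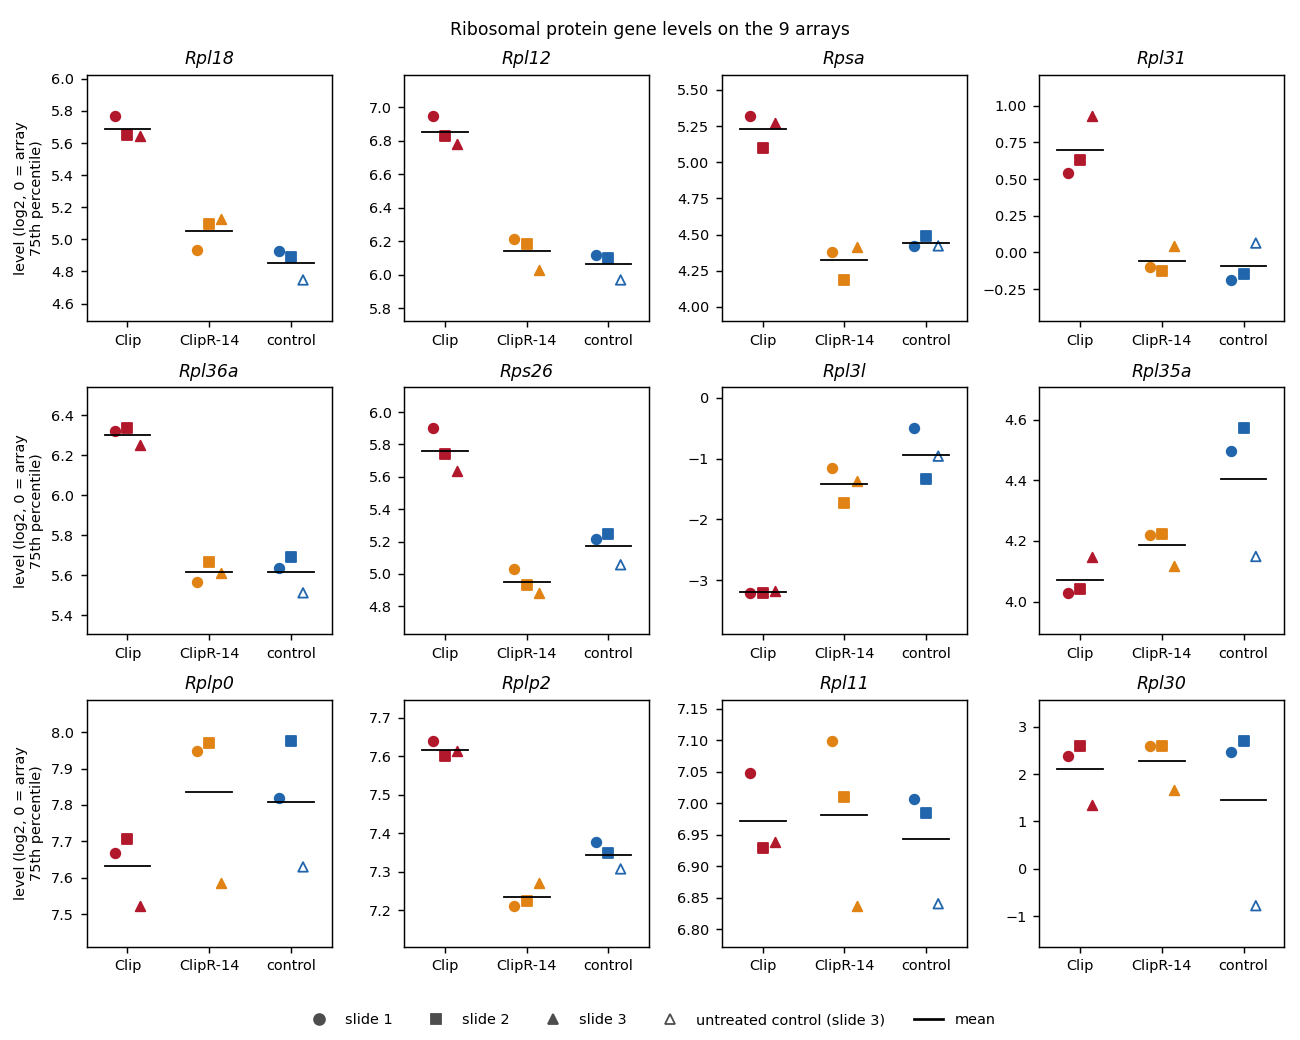
Level on each of the 9 arrays (vertical axis, log2 with 0 at the array's 75th percentile, scaled per panel) for 12 ribosomal protein genes in Clip, ClipR-14 and control kidneys, with the slide as the marker, the untreated control open and the arm mean as a line. Clip arrays stand apart above for Rpl18, Rpl12, Rpsa, Rpl31, Rpl36a, Rps26 and Rplp2 and below for Rpl3l, and the untreated array is at -0.78 for Rpl30.

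Of the stalk proteins, Rplp2 passed the threshold, and differences between the 3 were not tested. Rplp2, of the acidic pair that recruits elongation factors, had levels of 7.64, 7.60 and 7.61 in Clip, 7.21, 7.22 and 7.27 in ClipR-14, and 7.38, 7.35 and 7.31 in control. Clip arrays lay above all others, and the rise was 0.27 ± 0.07 (limma, BH-adjusted p = 0.0157; 0.06 with normexp, adjusted p = 0.747). Its partner Rplp1 changed by 0.13 ± 0.23 and did not pass, with 7.54, 7.53 and 7.22 in Clip, 7.56, 7.56 and 7.27 in ClipR-14, and 7.49, 7.66 and 6.75 in control. The untreated array was the lowest of the 9. Rplp0, which anchors the pair and is widely used as a reference gene, had 7.67, 7.71 and 7.52 in Clip, 7.95, 7.97 and 7.59 in ClipR-14, and 7.82, 7.97 and 7.63 in control. The arms overlapped and the brightest probe changed by -0.18 ± 0.14 (limma, BH-adjusted p = 0.323), while its second probe gave 0.46 ± 0.08 (adjusted p = 0.00204 in the fit of every probe). The direction of Rplp0 therefore depended on the probe, and on the scaling, since quantile normalization gave 0.26 for the brightest probe (adjusted p = 0.101).

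Rpl5 and Rpl11, which bind 5S ribosomal RNA together and can hold the p53 regulator Mdm2, had calls that changed with the setting. Rpl5 rose by 0.30 ± 0.08 (limma, BH-adjusted p = 0.0136), with 7.80, 7.68 and 7.80 in Clip, 7.34, 7.36 and 7.33 in ClipR-14, and 7.48, 7.48 and 7.43 in control. Rpl11 had 7.05, 6.93 and 6.94 in Clip, 7.10, 7.01 and 6.84 in ClipR-14, and 7.01, 6.99 and 6.84 in control, a change of 0.03 ± 0.10 with overlapping arms (adjusted p = 0.839). The Rpl5 call was lost with normexp (0.13, adjusted p = 0.553), with no filter on dim probes and without Clip 1, and Rpl11 passed with quantile normalization (0.46, adjusted p = 0.00125). The difference between both genes was not tested. Mdm2 itself changed by -0.33 ± 0.14 (limma, BH-adjusted p = 0.0782).

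Small-subunit genes with known regulatory or disease roles were mixed. Rps6, the substrate of the S6 kinases, rose by 0.27 ± 0.08 (limma, BH-adjusted p = 0.0235), with 4.59, 4.58 and 4.61 in Clip, 4.35, 4.37 and 4.23 in ClipR-14, and 4.28, 4.29 and 4.39 in control. Rps19, mutated in human Diamond-Blackfan anaemia, rose by 0.46 ± 0.09 (adjusted p = 0.00383), with 1.86, 1.76 and 1.87 in Clip, 1.44, 1.49 and 1.49 in ClipR-14, and 1.39, 1.50 and 1.23 in control. For both genes the Clip arrays were the 3 highest of the 9, and both calls were lost with normexp (0.12 and 0.33). The Rps6 call was lost in 7 of 19 alternatives, among them leaving out either sham array or any 1 Clip array, and that of Rps19 in 1. Rps3, at the mRNA entry, changed by 0.25 ± 0.14 (adjusted p = 0.18), and Rps27a, made as a fusion with ubiquitin, by -0.29 ± 0.22 (adjusted p = 0.309). With the sham arrays alone as control Rps27a was lower by -0.52 (adjusted p = 0.0456).

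Among the remaining large-subunit genes named by rule, Rpl10, which joins late and lines the tRNA sites, changed by 0.50 ± 0.38 (limma, BH-adjusted p = 0.308) and Rpl13a by 0.28 ± 0.10 (adjusted p = 0.0523). Rpl35a, another gene mutated in human Diamond-Blackfan anaemia, was the only fall among members that are not paralogs. Its levels were 4.03, 4.04 and 4.15 in Clip, 4.22, 4.22 and 4.12 in ClipR-14, and 4.50, 4.57 and 4.15 in control. The 2 sham arrays were high and the untreated array was level with the highest Clip array. The change of -0.33 ± 0.12 (adjusted p = 0.0488) was lost in 13 of 19 alternatives.

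Rpl3l fell most in the family. This paralog of Rpl3, known from skeletal muscle and heart, had levels of -3.21, -3.20 and -3.17 in Clip, -1.15, -1.74 and -1.37 in ClipR-14, and -0.51, -1.34 and -0.96 in control. Clip arrays lay far below the other 6, which overlapped with each other. Rpl3l was 4.79-fold lower in Clip than in control (-2.26 ± 0.22, limma, BH-adjusted p = 6.4e-05), and the change was -0.85 with normexp (adjusted p = 0.046). Its 1 probe was well above background on all 9 arrays.

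The other 5 paralogs did not pass the threshold in this comparison. Rpl22l1 changed by 0.34 ± 0.15 (limma, BH-adjusted p = 0.0927), Rps4l, annotated by RefSeq as a transcribed pseudogene, by 0.24 ± 0.18, Rpl36al by -0.08 ± 0.09, Rpl7l1 by -0.10 ± 0.10 and Rps27l, a p53 target, by -0.23 ± 0.12. Of the genes that Rpl3l, these paralogs and the untested Rpl39l are named after, Rpl36a and Rpl22 rose. Rpl22, a 60S protein, had 6.32, 6.14 and 6.05 in Clip, 5.83, 5.74 and 5.48 in ClipR-14, and 5.80, 5.77 and 5.53 in control (0.47 ± 0.13, adjusted p = 0.0177), but its second probe gave -0.07 ± 0.11. The Rpl22 call was lost in 5 of 19 alternatives, among them normexp, the mean of its probes and leaving out Clip 1. Rpl3 (0.48 ± 0.18, adjusted p = 0.0562), Rpl7 (0.13 ± 0.10), Rps27 (0.08 ± 0.12), Rps4x (0.30 ± 0.12, adjusted p = 0.0637) and Rpl39 (0.65 ± 0.39, adjusted p = 0.201) did not pass. With quantile normalization Rpl36al turned to 0.30 (adjusted p = 0.012).

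**Figure D3:**
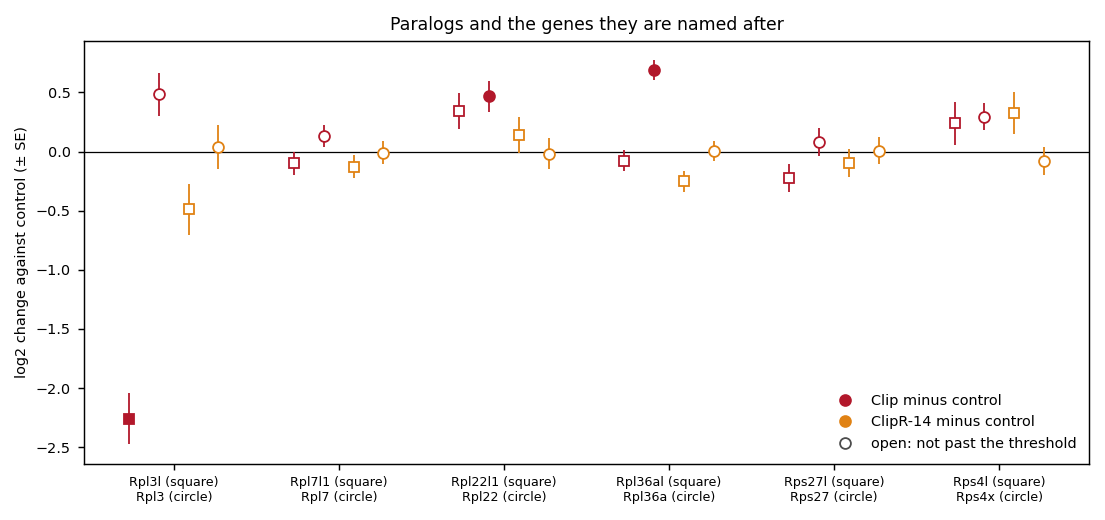
Fitted log2 change against control (vertical axis, ± SE) of 6 paralogs (squares) and the members they are named after (circles), for Clip and ClipR-14, filled where past the threshold. The filled points are Rpl3l at -2.26, Rpl22 at 0.47 and Rpl36a at 0.69, all in Clip.

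Some members varied far more between arrays than most, among them Rpl30, Rpl10, Rpl39 and Rpl14. The median SD over the 82 members was 0.10 in Clip, 0.12 in ClipR-14 and 0.11 in control. Rpl30, a small 60S protein, had 2.38, 2.59 and 1.35 in Clip, 2.58, 2.60 and 1.66 in ClipR-14, and 2.47, 2.69 and -0.78 in control, so that slide 3 was the lowest in each arm. Rpl10 had 4.98, 4.81 and 4.17 in Clip, 5.02, 5.08 and 4.25 in ClipR-14, and 4.51, 4.59 and 3.38 in control. Rpl39 had 5.09, 5.16 and 4.66 in Clip, 4.72, 4.79 and 4.38 in ClipR-14, and 4.84, 4.82 and 3.30 in control. Rpl14 had 1.28, 2.26 and 1.27 in Clip, 0.44 to 1.66 in ClipR-14, and 0.44, 0.84 and 1.07 in control, and its change of 0.82 ± 0.37 did not pass (adjusted p = 0.0949). The slide 3 arrays were the lowest of their arm for many members: Clip 3 for 51, ClipR-14 3 for 59 and the untreated array for 71 of 82. Over all genes these shares were 38.6%, 39.6% and 40.0%. Slide, scan day and the lack of a sham operation cannot be told apart for the untreated array.

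Probes of the same gene agreed only in part. Of the 28 members with several kept probes, 19 had all probes on one side of 0 in Clip against control and 9 had probes on both sides. In 10 genes, among them Rplp0, Rps3 and Rpl7, a dimmer probe passed where the brightest did not. Over 116 probes fitted singly, 48 were higher and 1 lower. Which gene copies each probe detects was not tested, and this family has many processed pseudogenes.

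The array medians show the shift without a fit in the main scaling. The members' median level was 6.32, 6.21 and 6.11 on the Clip arrays, 5.83, 5.74 and 5.67 on the ClipR-14 arrays, and 5.86, 5.91 and 5.70 on the control arrays. There all Clip arrays lay above the other 6, and ClipR-14 and control overlapped. With normexp this did not hold: the members' median difference from the control mean was 0.19, -0.22 and 0.24 on the Clip arrays, -0.12 to 0.02 on the ClipR-14 arrays and -0.08 to 0.05 on the control arrays. Clip 2 was then the lowest of the 9, while its median over all genes was 0.20. The upper end of the signal moved the other way: the 99th percentile of all genes was 6.27 to 6.35 in Clip, 6.49 to 6.69 in ClipR-14 and 6.65 to 6.81 in control. Its part in the result was not tested.

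The mitochondrial ribosomal proteins, which serve the separate ribosome of the organelle, went the other way in Clip. Of 77 tested 54 fell and 2 rose, with a median of -0.41, where 27.5% of all genes fell and 21.4% rose. The 2 that rose were Mrpl33 (0.84 ± 0.09, 1.78-fold) and Mrpl52 (0.56 ± 0.08), while Mrps21 (-1.09 ± 0.15) and Mrpl34 (-0.94 ± 0.11) fell most. With normexp 47 were lower and 0 higher, so neither rise passed there. The median stayed below 0 with each scaling, at -0.20 with quantile normalization and -0.53 with normexp. The distance between the cytosolic and the mitochondrial medians was thus 0.67 in the main setting and 0.59 with normexp, and this difference between lists was not tested.

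**Figure D4:**
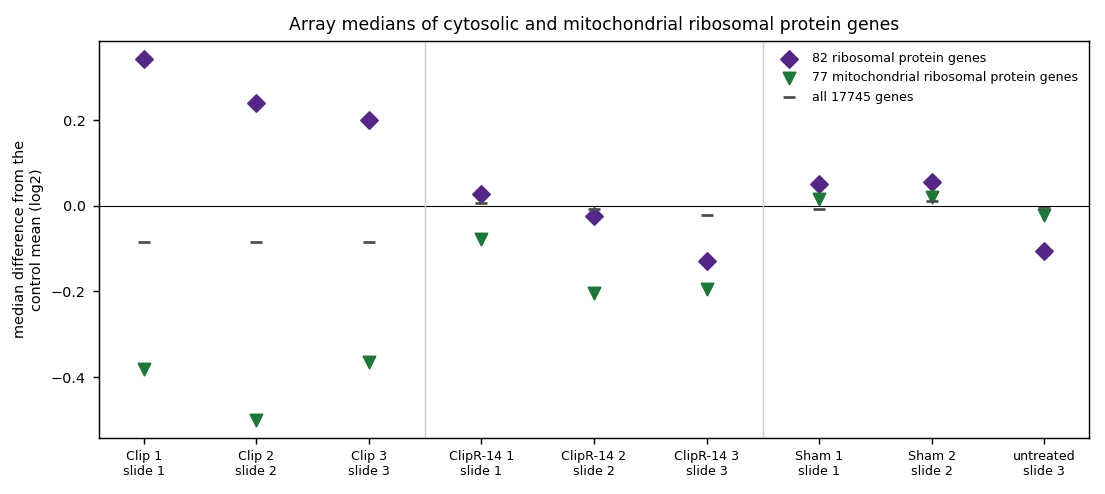
Median difference from the control mean (vertical axis, log2) on each of the 9 arrays for the 82 cytosolic ribosomal protein genes, the 77 mitochondrial ones and all 17745 genes. On the Clip arrays the cytosolic median is 0.34, 0.24 and 0.20 and the mitochondrial one -0.38, -0.50 and -0.36.

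Genes that act with the ribosome changed in part. Beside the counts of these and the following lists, 21.4% of all genes were higher in Clip and 27.5% lower. Outside the rule, Rack1, a scaffold on the 40S head, rose by 0.30 ± 0.10 (limma, BH-adjusted p = 0.0289), while Fau, made as a fusion with a ubiquitin-like protein, did not pass (-0.06 ± 0.10). Of 11 elongation genes, called elongation factors below although the list holds the kinase Eef2k, 5 rose and 0 fell (median 0.16). Among the rises were Eef1b2, the exchange factor of eEF1A (0.39 ± 0.10), and Eef2k, which inhibits eEF2 (1.15 ± 0.36). Eef2k was dim, at a mean level of -2.50 in Clip and -3.65 in control, and Eef1b2 was at 5.90 and 5.51. Both passed over all genes, as did 8 rises and 0 falls among 18 other TOP mRNAs (median 0.22), led by Hnrnpa1 (1.05 ± 0.09) and Npm1, a nucleolar chaperone (0.79 ± 0.12). With normexp 0 elongation factors were higher or lower (median 0.11, all genes 0.10), and 2 TOP mRNAs were higher and 1 lower (median 0.04). With the sham arrays alone as control 2 elongation factors and 3 TOP mRNAs were higher. Both lists share genes.

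Of 38 initiation factors 8 were higher and 5 lower, where 21.4% and 27.5% of all genes were. With normexp 3 were higher and 3 lower, and the median of 0.01 turned to -0.15. Eif4ebp1, the eIF4E-binding repressor controlled by mTOR, rose 3.71-fold (1.89 ± 0.11, limma, BH-adjusted p = 6.55e-06). Eif6, which keeps free 60S subunits from joining, rose 2.24-fold (1.17 ± 0.10, adjusted p = 4.78e-05). Eif4a2 (-0.70 ± 0.09), a helicase, and Eif4g3 (-0.48 ± 0.10), a scaffold, fell.

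Of 62 ribosome biogenesis genes 22 rose and 7 fell (median 0.18), against 11 and 6 with normexp (median 0.13, all genes 0.10). Tcof1, a nucleolar factor of ribosomal RNA synthesis, rose by 0.99 ± 0.15 and Nop58, a core protein of small nucleolar particles, by 0.81 ± 0.16, while Utp20 (-1.16 ± 0.20) and the 60S export adaptor Nmd3 (-0.86 ± 0.19) fell. Among 26 subunits of RNA polymerases I and III, 2 rose and 6 fell (median -0.09), against 0 and 4 with normexp. Polr1a, the largest subunit of polymerase I, rose by 0.51 ± 0.08 but did not pass with normexp. Polr3e of polymerase III was 4.44-fold lower (-2.15 ± 0.31, limma, BH-adjusted p = 0.000633). Of 18 growth control genes 2 rose and 6 fell, and Myc, a transcription factor known to drive ribosomal protein genes, rose 3.50-fold (1.81 ± 0.31, adjusted p = 0.0015).

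Markers of cell division and of cell types differed in the same comparison. Of 19 cell cycle genes 18 rose in Clip (log2 of the summed level, 6.94 to 7.11 in Clip, 4.89 to 5.24 in ClipR-14 and 5.29 to 5.40 in control). Macrophage and monocyte markers rose in 11 of 12 (5.72 to 5.93 in Clip, 4.42 to 4.73 in ClipR-14 and 3.67 to 3.94 in control). Fibroblast and myofibroblast markers rose in 11 of 11 (7.98 to 8.36 in Clip, 6.60 to 6.88 in ClipR-14 and 5.87 to 6.22 in control). Proximal tubule markers fell in 14 of 15 (8.95 to 9.29 in Clip, 10.21 to 10.52 in ClipR-14 and 10.33 to 10.61 in control), and Slc34a1 was 5.03-fold lower. Umod was 1.72-fold lower, Aqp2 3.40-fold lower and Nphs1 1.91-fold lower. Their part in the ribosomal protein changes was not tested, and in whole kidney RNA fewer cells of a type and less RNA per cell cannot be told apart.

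**Figure D5:**
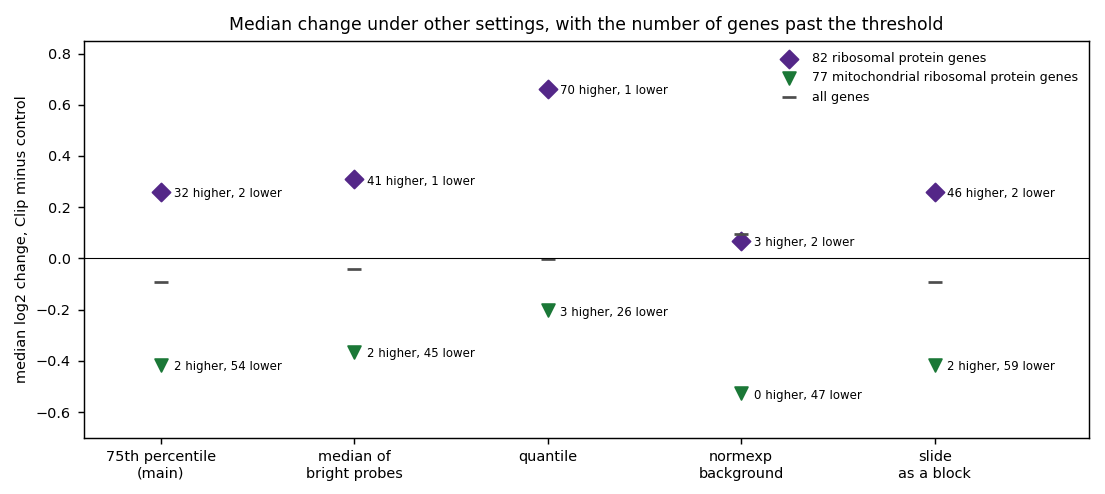
Median log2 change in Clip minus control (vertical axis) of the 82 cytosolic and 77 mitochondrial ribosomal protein genes and of all genes under 5 settings, with the number of genes past the threshold beside each point. The cytosolic median runs from 0.07 with normexp, where all genes are at 0.10, to 0.66 with quantile normalization, and the mitochondrial median is below 0 in each.

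After release the family moved down again. In ClipR-14 against Clip 38 of 82 members fell and 1, Rpl3l, rose, and 43 did not pass (limma, BH-adjusted). Thus 1.22% of the members were higher and 46.3% lower, whereas of all genes 41.0% passed, 23.5% higher and 17.4% lower. The members' median was -0.29, against 0.08 for all genes, and the falls were 1.21-fold to 1.88-fold. ClipR-14 arrays lay below all Clip arrays in 55 members, where 23.3% of all genes did so. Medians within slides 1, 2 and 3 were -0.33, -0.22 and -0.33, and with slide as a block 50 members were lower. With normexp 3 were lower and 0 higher (median -0.07, all genes -0.10), with quantile normalization 64 were lower and 1 higher, and without Clip 1 22 were lower.

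This comparison shares the Clip arrays with the first, so its values are not independent of it. Rpsa fell by 0.91 on the log2 scale (SE 0.10, limma, BH-adjusted p = 0.000205). Rps26, a 40S protein at the mRNA exit, had 5.03, 4.93 and 4.88 in ClipR-14, against 5.90, 5.74 and 5.63 in Clip, with control at 5.22, 5.25 and 5.06, and changed by -0.81 ± 0.10 against Clip (adjusted p = 0.000429). The ClipR-14 arrays were the 3 lowest of the 9. Rpl15, a 60S core protein, had 5.70, 5.65 and 5.73 in ClipR-14, against 6.48, 6.35 and 6.38 in Clip, with control at 5.88, 5.91 and 5.78, a change of -0.71 ± 0.08 (adjusted p = 0.000289) with ClipR-14 again the lowest arm. Rpl31 (-0.76 ± 0.13), Rpl12 (-0.71 ± 0.10) and Rpl36a (-0.69 ± 0.09) completed the 6 largest falls. With normexp Rpl15, Rpl12 and Rpl36a did not pass (limma, BH-adjusted p = 0.0595, 0.0561 and 0.0518). Rpl36a also had probes on both sides of 0 in this comparison. Rpl13a (-0.52 ± 0.10, adjusted p = 0.00398) and Rps4x (-0.38 ± 0.12, adjusted p = 0.0305), which had not passed against control, fell as well. The Rps4x call was lost in 5 of 19 alternatives, among them normexp and leaving out Clip 1, and that of Rpl13a in 1, normexp.

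Rpl3l returned upwards, 3.42-fold higher in ClipR-14 than in Clip (1.77 ± 0.22, limma, BH-adjusted p = 0.000341; 0.48 with normexp, adjusted p = 0.239). The remaining paralogs did not pass. Mitochondrial ribosomal proteins rose in 31 of 77 and fell in 2 (median 0.26), where 23.5% of all genes rose and 17.4% fell. Mrps21 (0.96 ± 0.15) and Mrpl16 (0.97 ± 0.27) rose most. Biogenesis genes fell in 27 of 62 and rose in 4 (7 and 3 with normexp), with Ddx21, a nucleolar helicase (-1.13 ± 0.15), and Tcof1 (-0.84 ± 0.15) lowest and Mdn1 (0.73 ± 0.23) and Utp20 (0.59 ± 0.20) highest. Eif4ebp1 (-1.82 ± 0.11), Eif6 (-1.33 ± 0.10), Hnrnpa1 (-1.25 ± 0.09), Eef1b2 (-0.44 ± 0.10), Eef1a1 (-0.43 ± 0.10) and Myc (-1.54 ± 0.31) fell too. With normexp 0 elongation factors were higher or lower, so neither Eef1b2 nor Eef1a1 passed there.

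Against control, ClipR-14 kidneys had 0 ribosomal protein genes higher and 0 lower, and 3 at an unadjusted p under 0.05 (limma, BH-adjusted; of all genes 1.83% passed, 1.46% higher and 0.372% lower, and 21.5% had an unadjusted p under 0.05). The members' median was -0.05 (range -0.49 to 0.82), beside -0.01 for all genes, and -0.04, -0.08 and -0.04 within slides 1, 2 and 3. ClipR-14 arrays lay above all control arrays in 1 member and below them in 13, where 13.6% of all genes did so in each direction. With slide as a block 1 member, Rpl10, was higher (0.62 ± 0.12, adjusted p = 0.043). A value that misses the threshold does not show equal levels: Rpl3l, for example, was at -0.49 ± 0.22 (adjusted p = 0.239), and its ClipR-14 and control arrays overlapped.

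Some marker lists still held differences. Of the macrophage markers 6 of 12 and of the fibroblast markers 5 of 11 were still higher in ClipR-14 than in control, while 0 of 19 cell cycle genes and 0 of 62 biogenesis genes passed (limma, BH-adjusted). Of the mitochondrial ribosomal proteins 0 of 77 passed, with a median of -0.17 beside -0.01 for all genes, and 3 were lower with slide as a block. Rpsa (-0.12 ± 0.10), Rpl18 (0.20 ± 0.10), Rpl12 (0.08 ± 0.10), Rpl31 (0.03 ± 0.13), Rps26 (-0.22 ± 0.10) and Rpl15 (-0.17 ± 0.08) were each within 0.25 of control on the log2 scale.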

How the data were processed

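Per the labels' protocols, 500 ng of total RNA per kidney was amplified and labelled with Cy3. Per the file headers, the deposited scanner files hold spot intensity values that Feature Extraction 10.7.3.1 (protocol GE1_107_Sep09, design 014868, grid build mm9) had background-subtracted and detrended within each array, without scaling between arrays. Other deposited columns used are median spot and background signals, and flags of 0 or 1 per the file headers. A deposited table of log2 values was not used, because its 8065 rows that name a transcript probe correlated at a median of 0.0188 with that probe's scanner values.

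Each intensity was set relative to the 75th percentile of its array on the log2 scale. Spots with an outlier flag were left out and repeated spots averaged. A probe was kept if well above background on at least 3 of 9 arrays, and the brightest stood for each gene. Probes took symbols through RefSeq accessions (26690 of 41174; 14484 kept an accession alone). The 3 arms were fitted over all 9 arrays with limma 3.58.1 in R 4.3.3, with Benjamini-Hochberg (BH) adjustment over 17745 genes, after a test on simulated data. The effect of the alternatives is given at the end. All but normexp changed 1 choice, and the sham arrays alone as control and the fit without the untreated array are the same fit. The normexp setting replaced the processed signal by the median spot and background signals, which are not detrended, and added an offset of 50, so it changed several at once. Array deviations correlated at 0.16 to 0.28 within slides and at -0.24 to 0.003 between arms on different slides. The replicate numbers of Clip and ClipR-14 follow the slides, but the untreated array, numbered 1, lay on slide 3.

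The members and lists were chosen with earlier results of these data known. Named genes are, per comparison, the 6 largest rises and falls past the threshold, the stalk and other well-known members, the paralogs with the genes they are named after, and the 2 largest rises and falls of each translation or biogenesis list. Rpl30, Rpl39, Rpl14 and the probe examples were singled out after their values were seen. Some results that the naming rule covers are not reported here. The fit of every probe and the columns used for normexp were chosen after seeing the data.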

Additional observations from a re-analysis of the deposited data

How the results depend on the processing

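In Clip against control, the median change of all genes was -0.09 in the main setting, 0.00 with quantile normalization and 0.10 with normexp. The count of higher ribosomal protein genes was 3 with normexp, 70 with quantile normalization, 20 with no filter on dim probes, and 19 to 35 with 1 array left out (32 in the main setting). The count of lower ones was 1 with quantile normalization, median scaling, no filter, the replicate block, only the 2 arms compared or every probe as a row, and 1 to 3 with 1 array left out. Their median was 0.068 with normexp and 0.66 with quantile normalization. The replicate block gave 34 higher and 1 lower, the sham arrays alone 23 and 3. In ClipR-14 against control, the members' median was 0.10 with quantile normalization, and 1 was higher with slide as a block. In ClipR-14 against Clip, normexp gave 0 higher, 3 lower and a median of -0.073, and quantile normalization 64 lower and -0.55. With 1 array left out 22 to 41 were lower, 22 without Clip 1; the replicate block gave 38. With quantile normalization Rpl36al turned to 0.30 in Clip against control (-0.08 in the main setting) and Rpl11 to -0.27 in ClipR-14 against Clip (0.01). The cause of these differences was not tested, except that no filter means more genes tested and a left-out array fewer samples. Of the 34 calls in Clip against control 4 held in all 19 alternatives and 18 in all but normexp. Of the 39 in ClipR-14 against Clip 3 held in all 19 and 21 in all but normexp. All 34 and all 39 kept their direction with quantile normalization, median scaling and either block, and 32 of 34 did with normexp. Signal near background left Rpl39l without a change, and Rpl3l, the dimmest tested member in Clip, moved most with normexp.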
